A study of Mus musculus with 12 samples.

Results

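The genes described here make or mark macrophages and osteoclasts, or regulate how those cells form. They are Csf1, Csf1r, Cd14, Cd68, Msr1, Acp5, Oscar, Tnfsf11, Tnfrsf11a and Tnfrsf11b, chosen by their symbols alone, 10 of the 34509 symbols on the array. All 13 probes carrying these symbols were followed through femoral head cartilage explants of 21-day-old TS-4/5∆cat mice, which lack the catalytic domains of both ADAMTS-4 and ADAMTS-5, major enzymes of cartilage proteoglycan breakdown. The explants, 4 hips to a well, were left untreated or received 10 ng/mL IL-1α, an inflammatory cytokine, or 10 µM retinoic acid, a vitamin A derivative that acts through nuclear receptors, for 3 days. Each treatment had 4 Illumina bead arrays, 2 in batch 1 (the Donut line) and 2 in batch 2 (the Gertrude line), so that batch and mouse line cannot be told apart. Every array, controls included, came from mice with both deletions, so no wild-type tissue was compared. The labels mention 24 hours in medium with serum before treatment, whereas the methods describe serum-free culture. The sources speak of 3 mice or wells per treatment and do not tie arrays to animals, so the p-values measure the spread between these arrays, which may in part be technical.

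Osteoclasts, the cells that resorb bone and calcified cartilage, form from the monocyte and macrophage lineage. Macrophage colony-stimulating factor (CSF1), acting on its receptor CSF1R, keeps the precursors alive and dividing, and RANK ligand (TNFSF11), acting on RANK (TNFRSF11A), drives them to become osteoclasts. Osteoprotegerin (TNFRSF11B) is a soluble decoy receptor that captures RANK ligand, and in bone and cartilage it is made by many of the same mesenchymal cells that make the ligand.

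Of the 13 probes, 11 probes for 9 genes passed the detection filter (detection p under 0.05 on at least 4 of the 12 arrays), and both Msr1 probes failed it. Values are log2 normalized intensities, and levels of the members were compared between treatments for a given probe, never between genes. The sums over marker lists below add probes of different genes, so that brighter probes weigh more in them. A change was called at an adjusted p under 0.05. With retinoic acid against untreated, 6 member probes for 5 genes were called higher and 1 lower, while 18.2% of the 18200 probes tested were called higher and 17.1% lower. With IL-1α against untreated, 4 member probes for 3 genes were higher and 1 was lower, against 15.2% and 14.1% of all probes. Between the treatments, retinoic acid gave the higher value for 2 member probes and the lower for 4, against 15.2% and 15.8% of all probes. The median log2 fold change of the 11 member probes was 0.64, 0.37 and −0.24 in these comparisons, beside 0.02, 0.02 and −0.03 over all probes. The comparisons with untreated share the same 4 untreated arrays and are therefore not independent of each other. In whole explants, fewer cells of a type and less RNA per cell cannot be told apart.

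**Figure D1:**
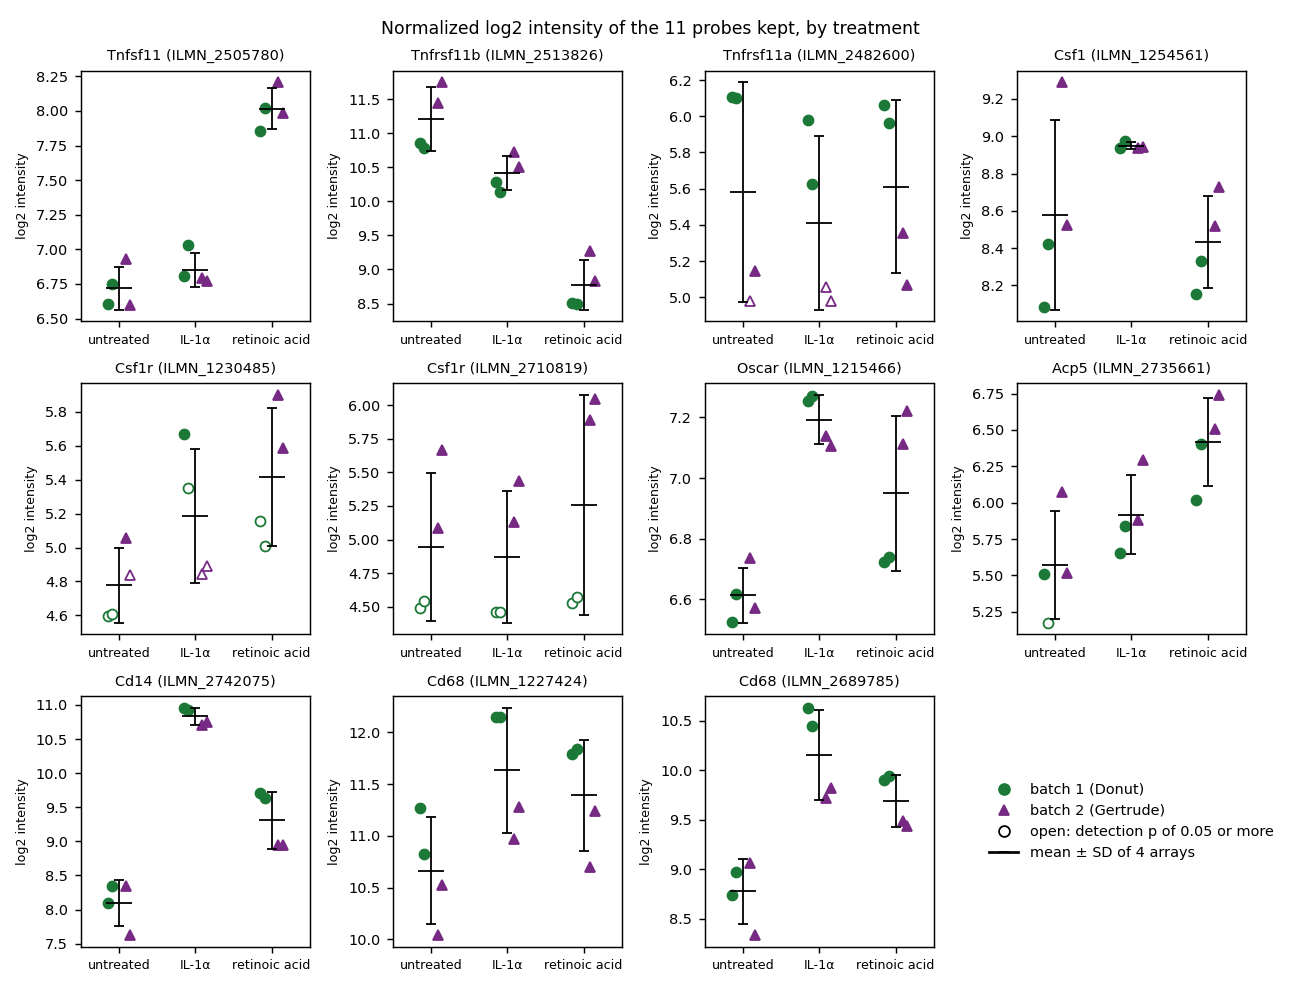
Normalized log2 intensity (y axis, a separate scale for each probe) of the 11 probes kept, by treatment. Each point is 1 array, circles are batch 1 and triangles batch 2, open symbols have a detection p of 0.05 or more, and the bar with whiskers is the mean ± SD of 4 arrays. The 4 retinoic acid arrays lie above every other array for Tnfsf11 and below every other array for Tnfrsf11b.

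The RANK ligand and its decoy receptor moved in opposite directions with retinoic acid. Tnfsf11, which encodes RANK ligand, rose 2.46-fold, and Tnfrsf11b, which encodes osteoprotegerin, fell 5.39-fold. IL-1α lowered Tnfrsf11b 1.73-fold, and no Tnfsf11 change was called with it.

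For Tnfsf11 (probe ILMN_2505780), the arrays read 6.60, 6.75, 6.93 and 6.60 in untreated cartilage, 6.81, 7.03, 6.80 and 6.77 with IL-1α, and 7.85, 8.02, 8.21 and 7.98 with retinoic acid, in the order batch 1 replicates 1 and 2, then batch 2 replicates 1 and 2, which is kept throughout. All 4 retinoic acid arrays were above all 8 others, and the untreated and IL-1α arrays overlapped. The log2 fold change with retinoic acid was 1.30 (SE 0.12, adjusted p = 1.71e-06) against untreated and 1.16 (SE 0.12, adjusted p = 4.92e-06) against IL-1α. With IL-1α against untreated it was 0.13 (SE 0.12, adjusted p = 0.419). The rise with retinoic acid was nearly the same size in each line, 1.26 in batch 1 and 1.33 in batch 2.

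The promoter of Tnfsf11 is shown because, of the 6 members with a promoter window used here, this gene rose most with retinoic acid. The sequence is from RefSeq (build GRCm38.p6), chr14:78308044-78308293, minus strand, the 250 bases before the transcription start, read 5′ to 3′ on the strand of the gene. Capitals mark overlapping matches to TATAA on either strand, between −31 and −26 from the start.
Tnfsf11: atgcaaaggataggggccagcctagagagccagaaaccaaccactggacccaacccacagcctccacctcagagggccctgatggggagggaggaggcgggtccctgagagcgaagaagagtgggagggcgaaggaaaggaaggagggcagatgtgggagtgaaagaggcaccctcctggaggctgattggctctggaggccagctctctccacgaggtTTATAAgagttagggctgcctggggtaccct
A TATAA match was present in 22.8% of all 32851 RefSeq windows of this length. The core motif of retinoid receptors, AGGTCA, searched on both strands, was in 14% of all windows. It was not found in the windows used for the 6 members.

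For Tnfrsf11b (ILMN_2513826), untreated arrays read 10.85, 10.78, 11.44 and 11.75, IL-1α arrays 10.29, 10.14, 10.72 and 10.51, and retinoic acid arrays 8.51, 8.49, 9.27 and 8.82. The 3 treatments did not overlap, with untreated highest and retinoic acid lowest. The log2 fold change was −2.43 (SE 0.14, adjusted p = 3.65e-08) for retinoic acid and −0.79 (SE 0.14, adjusted p = 0.00102) for IL-1α, each against untreated. Retinoic acid was lower than IL-1α by a log2 fold change of −1.64 (SE 0.14, adjusted p = 1.23e-06), or 3.11-fold. Every one of the 4 same-numbered pairs of arrays showed the fall in each comparison. Untreated arrays of batch 2 were higher than those of batch 1, and the IL-1α call was lost in a model without the batch term (adjusted p = 0.0990, range over the 21 alternatives 3.2e-04 to 0.0990).

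Combined, the change of the ligand exceeded that of the decoy receptor by 3.73 ± 0.39 on the log2 scale with retinoic acid against untreated (SD, n = 4 pairs of arrays of the same batch and replicate number), that is 13.2-fold. The pairs ranged from 3.45 to 4.31. With IL-1α against untreated the same difference of changes was 0.92 ± 0.35 (range 0.60 to 1.41), or 1.90-fold, and it came mainly from the fall of Tnfrsf11b. Retinoic acid against IL-1α gave 2.80 ± 0.12 (range 2.63 to 2.90), or 6.97-fold. Each of these is a difference between changes, since probes of different genes were not compared in level, and no test was made of it. The SD and range depend on matching arrays by replicate number, a pairing that the data by themselves did not show.

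**Figure D2:**
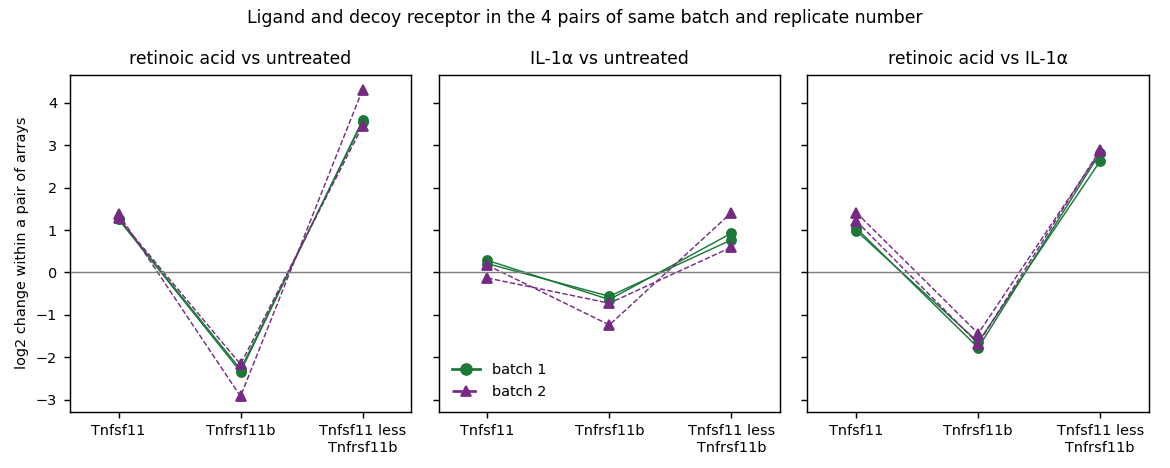
Log2 change (y axis) of Tnfsf11, of Tnfrsf11b, and of Tnfsf11 less that of Tnfrsf11b within each of the 4 pairs of arrays of the same batch and replicate number. Each line is 1 pair, solid for batch 1 and dashed for batch 2, and with retinoic acid against untreated the difference lies between 3.45 and 4.31 in all 4 pairs.

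Tnfrsf11a, which encodes the receptor RANK on osteoclast precursors, was dim. Its probe (ILMN_2482600) was detected on 3 of 4 untreated, 2 of 4 IL-1α and all 4 retinoic acid arrays. Untreated arrays read 6.11, 6.10, 4.98 and 5.14, IL-1α arrays 5.98, 5.63, 5.06 and 4.98, and retinoic acid arrays 6.06, 5.96, 5.35 and 5.07. Batch 1 was higher than batch 2 in all 3 treatments, and the treatments overlapped. No change was called, with log2 fold changes of 0.03 (SE 0.12, adjusted p = 0.884) for retinoic acid and −0.17 (SE 0.12, adjusted p = 0.320) for IL-1α.

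Among 14 other genes of the RANK signal chain, 3 rose and none fell with retinoic acid, and 4 rose and 1 fell with IL-1α. The median log2 fold change was 0.09 and 0.31, beside 0.02 and 0.02 over all probes. Over all 18200 probes, 18.2% were called higher and 17.1% lower with retinoic acid, and 15.2% and 14.1% with IL-1α. These shares also stand beside the counts of the other lists below, where no other setting is named. Tec, a kinase that works downstream of RANK, rose with retinoic acid (log2 fold change 1.12, SE 0.20, adjusted p = 6.13e-04), as did Traf6, the adaptor that RANK recruits (0.59, SE 0.16, adjusted p = 0.0133). Tec was detected on 2 of 4 untreated, 1 of 4 IL-1α and all 4 retinoic acid arrays. Relb and Nfkb1, subunits of the transcription factor NF-κB, rose with IL-1α by 1.45 (SE 0.11, adjusted p = 1.19e-06) and 0.51 (SE 0.12, adjusted p = 0.00841). Blnk, an adaptor in the same signal chain, was the gene that fell with IL-1α (−0.68, SE 0.19, adjusted p = 0.0190). Its fall was not called in 4 of the 12 fits without a single array, nor under median scaling. The count of 3 that rose with retinoic acid was lower in 4 of those 12 fits. In a model of treatment only, 1 gene of the chain rose with each treatment and none fell. Nfatc1, the transcription factor that RANK signalling induces in osteoclast precursors, was detected on all 12 arrays and gave 0.01 (adjusted p = 0.977) with retinoic acid and 0.29 (adjusted p = 0.0846) with IL-1α. With each array scaled to a common median, 1 gene of the chain in place of 4 was called higher with IL-1α, and without IL-1α replicate 2 of batch 1 or untreated replicate 1 of batch 2 the count was 2.

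Csf1, which encodes macrophage colony-stimulating factor, was lower with retinoic acid than with IL-1α, and no change of it was called against untreated. Its receptor Csf1r was near the detection limit.

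Csf1 (ILMN_1254561) read 8.09, 8.42, 9.29 and 8.52 in untreated, 8.93, 8.98, 8.94 and 8.94 in IL-1α and 8.15, 8.33, 8.52 and 8.73 in retinoic acid arrays. The IL-1α arrays, from 8.93 to 8.98, lay above all 4 retinoic acid arrays, and the untreated arrays spread across both. The log2 fold change of retinoic acid against IL-1α was −0.51 (SE 0.17, adjusted p = 0.0390), and this call was lost in 10 of 21 alternatives, 7 of them leaving out a single array (adjusted p 0.00726 to 0.268 over all). Against untreated, IL-1α gave 0.37 (SE 0.17, adjusted p = 0.131) and retinoic acid −0.15 (SE 0.17, adjusted p = 0.558). Replicate 1 of batch 2 was the highest untreated array, and without it the IL-1α value was 0.59 (adjusted p = 0.00751, range over the alternatives 0.00751 to 0.500) and the retinoic acid value turned to 0.08.

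Csf1r, the receptor tyrosine kinase that defines the macrophage lineage, had 2 probes. Probe ILMN_1230485 was detected on 1 untreated, 1 IL-1α and 2 retinoic acid arrays, and read 4.60, 4.61, 5.06 and 4.84, then 5.67, 5.35, 4.84 and 4.89, then 5.16, 5.01, 5.90 and 5.59. It was highest with IL-1α in batch 1 and with retinoic acid in batch 2. Across both batches retinoic acid was higher than untreated by 0.64 (SE 0.22, adjusted p = 0.0388), a call lost in 9 of 20 alternatives, 6 of them leaving out a single array (adjusted p 0.0153 to 0.181 over all). Probe ILMN_2710819 was detected on all 6 arrays of batch 2 and on none of batch 1. It read 5.08 and 5.67 in untreated, 5.13 and 5.43 in IL-1α and 5.88 and 6.04 in retinoic acid arrays of batch 2, and no change was called for it (0.31, SE 0.14, adjusted p = 0.116 for retinoic acid against untreated).

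Of 4 other colony-stimulating factor genes tested, Csf3, the granulocyte factor, was detected on the 4 IL-1α arrays and on no other array. It was at least 3.08-fold higher with IL-1α than in untreated cartilage (adjusted p = 5.69e-05), each untreated array being taken at the higher of its own reading and the lowest signal among its detected probes. Csf2ra, a subunit of the receptor for granulocyte-macrophage colony-stimulating factor, fell with retinoic acid (−1.08, SE 0.11, adjusted p = 6.47e-06) and with IL-1α (−0.55, SE 0.11, adjusted p = 0.00246). No change against untreated was called for Csf3r or Csf2rb2.

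Acp5, tartrate-resistant acid phosphatase, the classical stain for osteoclasts, rose with retinoic acid 1.80-fold. Oscar, an immunoreceptor that gives osteoclast precursors a costimulatory signal, rose with IL-1α 1.49-fold. Oscar was not called with retinoic acid, nor Acp5 with IL-1α, each against untreated, and for Oscar the difference between the treatments was not called.

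Acp5 (ILMN_2735661) was detected on 11 arrays, all but replicate 2 of batch 1 in untreated. Untreated arrays read 5.51, 5.18, 6.07 and 5.52, IL-1α arrays 5.65, 5.84, 5.88 and 6.29, and retinoic acid arrays 6.02, 6.41, 6.51 and 6.74. In every pair of the same batch and number the retinoic acid array was above both others, although the treatments overlapped across batches. The log2 fold change of retinoic acid was 0.85 (SE 0.16, adjusted p = 0.00116) against untreated and 0.50 (SE 0.16, adjusted p = 0.0319) against IL-1α, and the second call was lost in 7 of 21 alternatives (adjusted p 0.0171 to 0.244 over all). IL-1α against untreated gave 0.35 (SE 0.16, adjusted p = 0.125). Of 5 other acid phosphatase genes tested, Acpl2 rose with retinoic acid (1.04, SE 0.20, adjusted p = 0.00108) and fell with IL-1α (−0.66, SE 0.20, adjusted p = 0.0235, not called in 5 of the 12 fits without a single array), and Acpp rose with IL-1α (1.43, SE 0.13, adjusted p = 4.59e-06). Acpp was detected on 2 of 4 untreated and all 4 IL-1α arrays. The lysosomal enzyme Acp2 gave 0.21 (adjusted p = 0.161) with retinoic acid and −0.28 (adjusted p = 0.0813) with IL-1α.

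Oscar (ILMN_1215466) read 6.53, 6.62, 6.74 and 6.57 in untreated, 7.25, 7.27, 7.14 and 7.11 in IL-1α and 6.72, 6.74, 7.11 and 7.22 in retinoic acid arrays. Every untreated array lay below the lowest IL-1α array. The retinoic acid arrays stayed close to untreated in batch 1 and reached the IL-1α level in batch 2. IL-1α against untreated gave a log2 fold change of 0.58 (SE 0.13, adjusted p = 0.00592), and this call was lost when arrays were scaled to a common median (adjusted p = 0.0660, range over the alternatives 0.00232 to 0.0660). Retinoic acid gave 0.34 (SE 0.13, adjusted p = 0.0669) against untreated and −0.24 (SE 0.13, adjusted p = 0.197) against IL-1α.

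Oscar signals through an adaptor that carries an immunoreceptor tyrosine-based activation motif, ITAM. Of its usual partners, the probes of Fcer1g and of the kinase Syk were not detected on any array. Another ITAM adaptor of the list, Tyrobp, also called DAP12, rose with retinoic acid (0.60, SE 0.14, adjusted p = 0.00441). It was detected on 3 of 4 untreated and all 4 retinoic acid arrays. Among 5 genes of the ITAM list tested beside Oscar, Tyrobp included, 2 rose and 1 fell with retinoic acid. The fall was not called in 5 of the 12 fits without a single array. Trem2, a receptor that pairs with Tyrobp, was the gene that fell with IL-1α (−1.51, SE 0.16, adjusted p = 1.91e-05).

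The macrophage surface and lysosome genes Cd14 and Cd68 rose with both treatments, and more with IL-1α in the case of Cd14. Cd14 is the co-receptor through which Toll-like receptor 4 detects bacterial lipopolysaccharide. CD68 is a lysosomal glycoprotein used to stain macrophages and osteoclasts alike.

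Cd14 (ILMN_2742075) read 8.09, 8.34, 8.35 and 7.62 in untreated, 10.95, 10.92, 10.70 and 10.75 in IL-1α and 9.70, 9.63, 8.94 and 8.95 in retinoic acid arrays. The 3 treatments did not overlap, with IL-1α highest and untreated lowest. IL-1α raised it 6.64-fold (log2 fold change 2.73, SE 0.16, adjusted p = 1.32e-07) and retinoic acid 2.31-fold (1.21, SE 0.16, adjusted p = 6.32e-05). Retinoic acid was below IL-1α by −1.52 (SE 0.16, adjusted p = 8.1e-06). The IL-1α change was 2.72 in batch 1 and 2.74 in batch 2, and the retinoic acid change 1.45 and 0.96.

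Its signalling partners moved with it in part. Of 6 other genes of lipopolysaccharide recognition, 3 rose with retinoic acid and 2 with IL-1α, and none fell. Without untreated replicate 1 of batch 1, 5 rose with retinoic acid. Tlr4, the receptor itself, rose by 1.19 (SE 0.12, adjusted p = 4.41e-06) with retinoic acid and by 0.86 (SE 0.12, adjusted p = 1.52e-04) with IL-1α. Ly96, the cofactor MD-2, rose by 0.93 (SE 0.13, adjusted p = 1.17e-04) and 0.63 (SE 0.13, adjusted p = 0.00347). Lbp, the lipopolysaccharide-binding protein, gave 0.20 (adjusted p = 0.524) and 0.58 (adjusted p = 0.0717).

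For Cd68 the 2 probes had the same directions. Probe ILMN_2689785 read 8.74, 8.97, 9.06 and 8.33 in untreated, 10.63, 10.45, 9.72 and 9.83 in IL-1α and 9.90, 9.94, 9.49 and 9.44 in retinoic acid arrays, so both treatments lay above all untreated arrays. Its log2 fold change was 1.38 (SE 0.16, adjusted p = 5.5e-05) with IL-1α and 0.91 (SE 0.16, adjusted p = 7.59e-04) with retinoic acid. The brighter probe, ILMN_1227424, read 11.27, 10.82, 10.04 and 10.52, then 12.15, 12.14, 10.97 and 11.27, then 11.79, 11.84, 10.70 and 11.24. Here the treatments overlapped across batches but within each batch both treated groups lay above untreated, and the changes were 0.97 (SE 0.12, adjusted p = 9.15e-05) and 0.73 (SE 0.12, adjusted p = 4.69e-04). Both calls of the brighter probe were lost in a model without the batch term (adjusted p = 0.161 and 0.277, the upper ends of their ranges, which began at 2.25e-05 and 1.44e-04). Retinoic acid was below IL-1α by −0.47 (SE 0.16, adjusted p = 0.0467) at the dimmer probe, a call lost in 13 of 21 alternatives (adjusted p 0.0114 to 0.385 over all), and the brighter probe gave −0.24 (SE 0.12, adjusted p = 0.167).

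The Cd68 promoter is shown because the gene rose with both treatments and its window held the most motif matches among the members with a window used. It is from RefSeq (GRCm38.p6), chr11:69666171-69666420, minus strand, the 250 bases before the start, read as above. Capitals mark GAGGAA, the core of PU.1 sites, at −225 to −220, and TGANTCA, the AP-1 motif, at −149 to −143 and at −24 to −18.
Cd68: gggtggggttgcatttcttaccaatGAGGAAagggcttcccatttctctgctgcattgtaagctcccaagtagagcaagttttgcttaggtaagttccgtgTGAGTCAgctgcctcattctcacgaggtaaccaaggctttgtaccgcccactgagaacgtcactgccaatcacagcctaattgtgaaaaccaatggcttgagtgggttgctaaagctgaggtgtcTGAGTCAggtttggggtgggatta
GAGGAA was present in 23.3% and TGANTCA in 6.75% of all windows. Oscar also had a GAGGAA match, and Csf1 a match to the NF-κB motif, present in 7.25% of all windows. The windows of Acp5 and Tnfrsf11a had no match to the 5 motifs searched. A match is a match of letters and was not tested as a binding site.

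Msr1, the class A scavenger receptor of macrophages, was not detected by either probe on any of the 12 arrays, with values between 4.45 and 4.70. No fold change is given for it. Cd36, Olr1 and Cd163, further scavenger receptors, were not detected on any array either. Of 7 other scavenger receptor genes tested, 2 rose and 4 fell with retinoic acid, and 1 rose and 4 fell with IL-1α. Fewer than 4 fell with retinoic acid in 5 of the 12 fits without a single array, and 2 fell under median scaling. In a model of treatment only, none was called with retinoic acid, and 2 fell and none rose with IL-1α. Stab1 and Colec12 went opposite ways, rising with retinoic acid (1.18, SE 0.16, adjusted p = 6.68e-05, and 0.84, SE 0.16, adjusted p = 9.56e-04) and falling with IL-1α (−1.09, SE 0.16, adjusted p = 2.3e-04, and −0.91, SE 0.16, adjusted p = 8.38e-04). The gene that rose with IL-1α was Scarb1 (0.35, SE 0.12, adjusted p = 0.0384), a call that 8 of the 12 fits without a single array did not make. Scara3, a further class A receptor, fell with IL-1α (−1.08, SE 0.14, adjusted p = 8.22e-05).

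**Figure D3:**
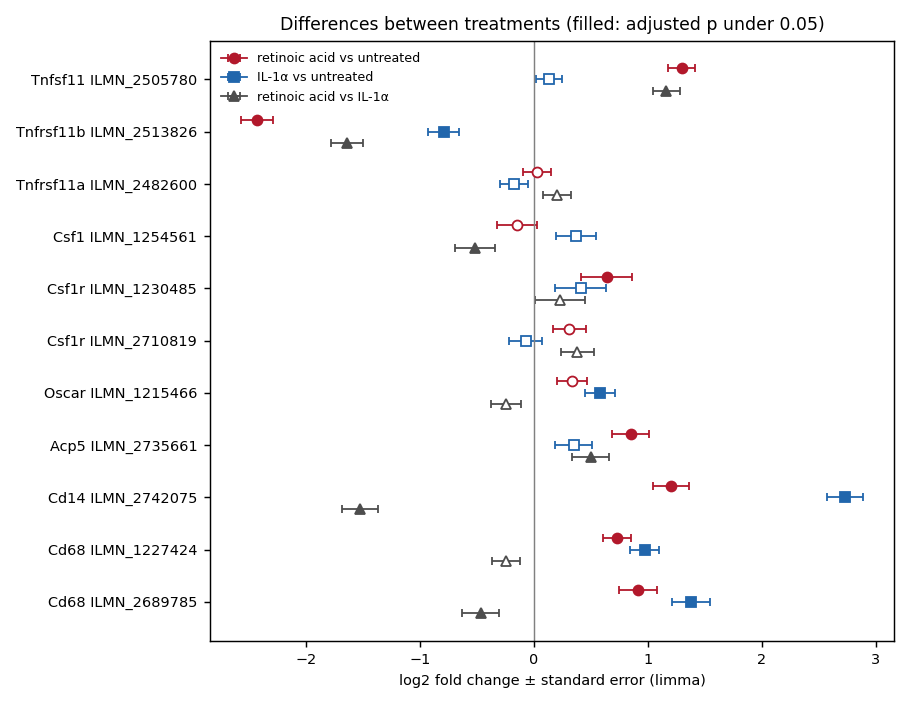
Log2 fold change ± standard error (x axis) of each of the 11 probes kept, for retinoic acid against untreated (circles), IL-1α against untreated (squares) and retinoic acid against IL-1α (triangles). Filled symbols have an adjusted p under 0.05, and the largest values in size are Cd14 with IL-1α at 2.73 and Tnfrsf11b with retinoic acid at −2.43.

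The exact permutation test over single probes compares 4 arrays with 4 and cannot give a two-sided p under 0.0286. It reached that value in the 12 of 33 probe comparisons in which the treatments did not overlap, 4 of 11 in each comparison. Over all 18200 probes the arrays did not overlap for 16.9% with retinoic acid against untreated, 13.5% with IL-1α against untreated and 17.7% between the treatments. These were Tnfrsf11b and Cd14 throughout, Tnfsf11 with retinoic acid against both others, the dimmer Cd68 probe with each treatment against untreated, Oscar with IL-1α against untreated, and Csf1 with retinoic acid against IL-1α. This test ignores the batch.

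Other markers of macrophages did not follow Cd14 and Cd68 under IL-1α. Of 13 macrophage markers tested beside the members, 7 fell and none rose with IL-1α (median log2 fold change −0.76), and 5 rose and none fell with retinoic acid (median 0.29). Between the treatments 9 were higher with retinoic acid and none lower (median 0.82), against 15.2% and 15.8% of all probes. That count of 9 ranged from 6 to 11 without a single array and was lower in 10 of those 12 fits. In a model of treatment only it was 5. C1qc, a chain of the complement protein C1q that tissue macrophages make, rose by 1.20 (SE 0.13, adjusted p = 1.57e-05) with retinoic acid and fell by 2.08 (SE 0.13, adjusted p = 2.72e-07) with IL-1α, and C1qa and C1qb did likewise. Aif1, the cytoskeletal protein IBA1, rose by 1.32 (SE 0.12, adjusted p = 2.02e-06) with retinoic acid and fell by 0.39 (SE 0.12, adjusted p = 0.0282) with IL-1α. It was detected on 2 of 4 IL-1α arrays and on all arrays of the other treatments. The lysozyme gene Lyzs fell by 1.47 (SE 0.19, adjusted p = 9.54e-05) with IL-1α and gave −0.01 (adjusted p = 0.968) with retinoic acid.

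The summed level of these 13 markers (linear intensity less the offset) was 7481 to 8677 on untreated, 4105 to 5296 on IL-1α and 8483 to 12281 on retinoic acid arrays. Lyzs made up 27.7% to 53.6% of this sum and Laptm5, a lysosomal membrane protein gene, 20.2% to 50.5%. In the sum, IL-1α was below the other treatments on every array, and retinoic acid overlapped untreated. Without Lyzs the sums were 3824 to 4575, 2969 to 3455 and 4774 to 7223, and retinoic acid no longer overlapped untreated. Cd163, Itgam, Ptprc and Siglec1, markers that many macrophages or all leukocytes carry, were not detected on any of the 12 arrays, as Msr1 was not. No called value of any list turned its sign when arrays were scaled to a common median. Without any single array, the count of macrophage markers that fell with IL-1α stayed between 6 and 8, and the count that rose with retinoic acid between 5 and 7. The median with retinoic acid ranged from 0.13 without retinoic acid replicate 1 of batch 2 to 0.49 without retinoic acid replicate 1 of batch 1. Without retinoic acid or IL-1α replicate 1 of batch 2, 1 marker was called lower with retinoic acid. In batch 1 alone 5 rose and 1 fell with retinoic acid (median 0.04), and in batch 2 alone 7 rose and none fell (median 0.75). Some of these markers were detected on all 6 arrays of batch 2 and on none of batch 1. Batch 1 cannot show a change of those markers, and this limits the comparison of the medians. The share of all probes called within a single batch was not computed, so the counts within a batch have no baseline beside them. In a model of treatment only, 3 markers rose with retinoic acid and 4 fell with IL-1α.

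Of 9 osteoclast markers tested beside the members, 6 rose with retinoic acid (median 0.67) and 5 with IL-1α (median 0.55), and none fell. Without a single array these counts were 5 to 6 and 4 to 5, with the IL-1α count lower in 5 of the 12 fits. Under median scaling they were 6 and 4. In a model of treatment only, 4 and 2 were called. Itgb3, Nfatc1 and Tm7sf4 were not called with either treatment. Mmp9, the gelatinase of osteoclasts and neutrophils, rose by 1.58 (SE 0.14, adjusted p = 1.82e-06) with retinoic acid and 0.61 (SE 0.14, adjusted p = 0.00603) with IL-1α. Car2, the carbonic anhydrase that supplies protons for resorption, rose by 1.50 (SE 0.12, adjusted p = 6.82e-07) with retinoic acid and gave 0.26 (SE 0.12, adjusted p = 0.129) with IL-1α. Its probe was detected on 1 of 4 untreated, 2 of 4 IL-1α and all 4 retinoic acid arrays, so its untreated level was near the detection limit. Tcirg1, a subunit of the osteoclast proton pump, rose by 1.36 (SE 0.13, adjusted p = 4.39e-06) and 0.65 (SE 0.13, adjusted p = 0.00282), and its partners in acid secretion, Clcn7 and Ostm1, rose with both treatments as well. Ctsk, the collagenase cathepsin K, rose by 0.58 (SE 0.16, adjusted p = 0.0137) and 0.55 (SE 0.16, adjusted p = 0.0219). Calcr and Atp6v0d2, which mark mature osteoclasts, were not detected on any array.

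Summed over these 9 genes, the level was 6087 to 9648 on untreated, 10420 to 11612 on IL-1α and 14103 to 18826 on retinoic acid arrays, with no overlap. This sum rests mainly on the brightest probes, Mmp9 and Ctsk. In untreated, IL-1α and retinoic acid arrays Mmp9 had mean log2 values of 11.59, 12.20 and 13.17, and Ctsk 11.51, 12.06 and 12.08. No other of the 9 genes had a mean above 9.64. Several of the genes, among them Tcirg1, Clcn7 and Ostm1, are also expressed by cells other than osteoclasts. Markers of other cell types moved too. All 8 chondrocyte genes tested fell with retinoic acid and 6 fell with IL-1α, and their summed level was 62424 to 73136 on untreated, 35213 to 46623 on IL-1α and 10055 to 15260 on retinoic acid arrays. Osteoblast genes fell in 5 of 6 cases with each treatment, with sums of 11098 to 13151, 3042 to 5271 and 4228 to 4777. The osteoblast count with retinoic acid was 3 without untreated replicate 2 of either batch and under median scaling, and in a model of treatment only the counts were 2 and 3. Neutrophil genes fell in 5 of 8 cases with retinoic acid and were not called with IL-1α, with sums of 9623 to 16054 on untreated, 16800 to 17665 on IL-1α and 5526 to 14661 on retinoic acid arrays. The neutrophil sum was 13613 to 16054 on untreated and 5526 to 5534 on retinoic acid arrays of batch 1, and 9623 to 11484 and 13817 to 14661 in batch 2. In batch 1 alone 7 of the genes fell with retinoic acid, and in batch 2 alone 2 rose and 1 fell. The count of 5 was 2 without either untreated array of batch 1 or retinoic acid replicate 2 of that batch, 3 without its replicate 1 or under median scaling, and 1 in a model of treatment only. With IL-1α, 6 neutrophil genes rose in batch 2 alone, and 3 rose and 1 fell in batch 1 alone. The neutrophil counts within a single batch likewise have no share of all probes beside them. For endothelial genes 1 rose and 1 fell with retinoic acid and 3 fell with IL-1α, of 6, and the rise and the fall with retinoic acid were not called in 3 and 4 of the 12 fits without a single array. Of 4 erythroid genes none was called against untreated, and of 2 T and B cell genes Cd79b rose with retinoic acid. The part of these shifts in the members' changes was not tested.

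**Figure D4:**
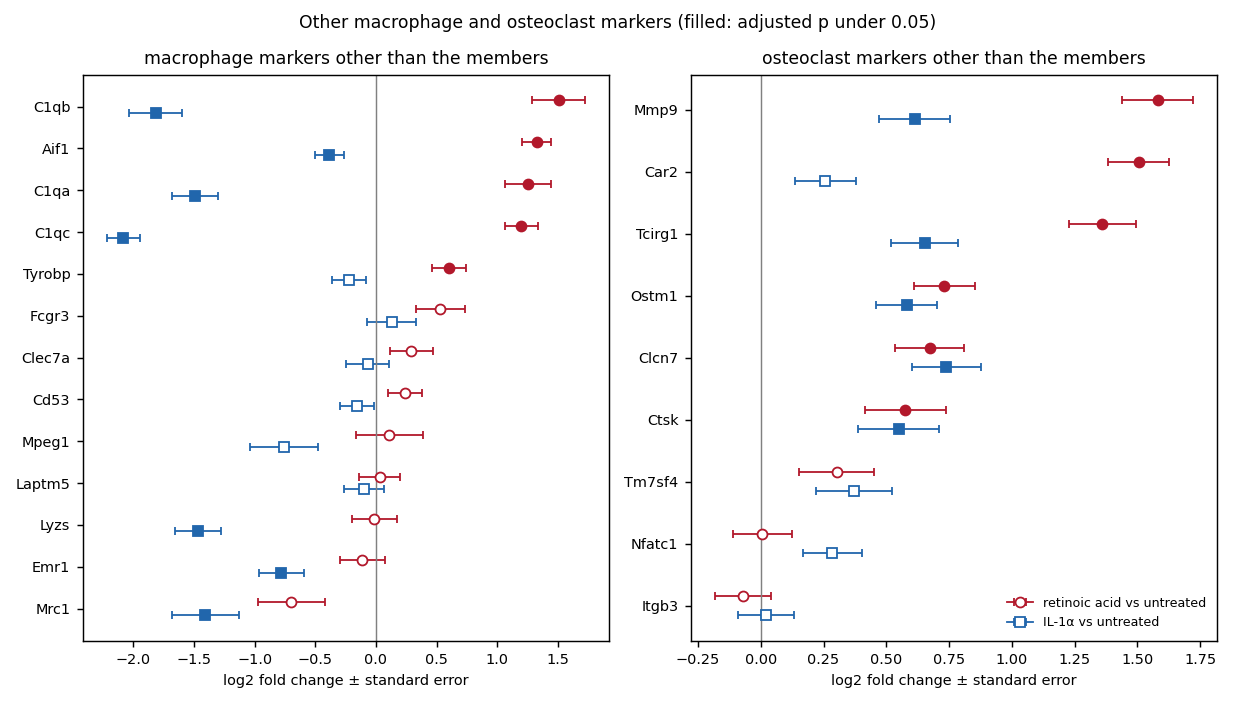
Log2 fold change ± standard error (x axis) of the 13 macrophage markers (left) and 9 osteoclast markers (right) tested beside the members, for retinoic acid (circles) and IL-1α (squares) against untreated. Filled symbols have an adjusted p under 0.05, and the C1q genes lie between 1.20 and 1.51 with retinoic acid and between −2.08 and −1.49 with IL-1α.

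Whether effects differed between the batches, and so between the mouse lines, was tested by the interaction of treatment and batch. It was called for 1 of 11 member probes, Csf1r ILMN_1230485, against 2.86% of all probes for retinoic acid against untreated, 4.82% for IL-1α against untreated and 8.76% for retinoic acid against IL-1α. At this probe the change with IL-1α was 0.90 in batch 1 and −0.08 in batch 2 (difference −0.99, SE 0.23, adjusted p = 0.0234). Retinoic acid against IL-1α gave −0.42 and 0.88 (difference 1.30, SE 0.23, adjusted p = 0.00273). The other Csf1r probe, which had no detected array in batch 1, gave differences of −0.04 (adjusted p = 0.951) and 0.59 (adjusted p = 0.168). Without untreated replicate 2 of batch 2, the array with the most detected probes, the interaction was called for 6 member probes, both Csf1r probes, Cd14, Csf1, Oscar and the dimmer Cd68 probe, and without untreated replicate 1 of batch 2 for 2, Csf1r ILMN_1230485 and Oscar. In the first of these fits the interaction was called for 3.54% of all probes with retinoic acid against untreated, 9.51% with IL-1α against untreated and 11.8% between the treatments, and in the second for 11.8% between the treatments. Detected probes numbered 13786 to 14965 per array in batch 1 and 16732 to 19485 in batch 2.

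Over the 12 arrays, after the mean of each batch was subtracted, some members varied together, as a description over arrays that share their treatments. Tnfsf11 and Tnfrsf11b had a Pearson correlation of −0.94, Acp5 correlated at 0.85 with Tnfsf11 and at −0.90 with Tnfrsf11b, and Cd14 correlated at 0.80 with the brighter Cd68 probe and at 0.93 with the dimmer. Among all probes kept, the genes most like Tnfsf11 were Ralgds (0.992), Bmp7 (0.988) and Mical3 (0.988). Those most like Tnfrsf11b were OTTMUSG00000004461 (0.996), Sec16b (0.994) and Hdac11 (0.988). For Cd14 they were Ptges, Pim2 and LOC674135 (all 0.988), and for Oscar Fpr-rs2 (0.984), Sf3b3 (0.978) and Ei24 (0.977). The nearest genes to the Cd68 probes were Nisch (0.975) and Nr1d2 (0.982), to Acp5 LOC624662 (0.959), to Csf1 Bfar (0.943), to the Csf1r probes Igh-6 (0.962) and Plscr2 (0.967), and to Tnfrsf11a Hemt1 (0.915).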

How the data were processed

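RNA of explant cultures was hybridised to 12 Illumina mouse bead arrays, 4 per treatment. The authors deposited linear probe intensities without normalization, with a detection score per probe and array, in 1 table. The bead summary software is not given in the sources used here. The deposited score rises with intensity, so 1 minus the score was used as detection p. All value columns were assigned to arrays by label (0 without a sample). In R 4.3.3 with limma 3.58.1, neqc corrected background by detection p, added an offset of 16 and applied quantile normalization before log2. Probes with detection p under 0.05 on at least 4 of 12 arrays were kept, 18200 of 46632. The model (lmFit, eBayes) held a treatment term plus a combined batch-and-replicate factor (4 levels), as the study's methods describe, and p-values were adjusted by Benjamini-Hochberg over all probes kept. Interactions were tested with 6 groups of treatment and batch. The paired factor rests on the methods. Replicate differences of 2 treatments correlated at 0.003 to 0.062 in batch 1 and −0.108 to 0.391 in batch 2, so the numbers by themselves did not show pairing. The members, lists and tests were chosen with earlier results of these data known. From each list the text names at most the 4 genes with the smallest adjusted p, genes never detected and genes whose level bears on the label. A macrophage marker of the list is not reported here. Scripts were tested on simulated data. Arrays have no read depth, and their number limits precision. Alternatives changed background correction, normalization, offset, filter, model or left out an array. Promoter windows came from RefSeq (GRCm38.p6) and were used for 6 of 10 members, after the windows on 1 chromosome were left out.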

Additional observations from a re-analysis of the deposited data

Results flagged for a closer look

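Among 33 groups of 4 arrays, 1 held an array far from the others. Tnfsf11 on IL-1α replicate 2 of batch 1 read 7.03, while the other IL-1α arrays lay between 6.77 and 6.81. Chance alone flags about 1 in 20 such groups.

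The effect of treatment on Csf1r probe ILMN_1230485 differed between batches by the interaction test. The difference, batch 2 minus batch 1, was −0.99 for IL-1α against untreated (adjusted p = 0.0234) and 1.30 for retinoic acid against IL-1α (adjusted p = 0.00273). The second of these was called in each of the 12 fits without a single array, and the first in 7 of them. The probe was detected on 4 of 12 arrays, and the other Csf1r probe was not detected in batch 1, so that it cannot show the difference.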

How the results depend on the processing

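Over 21 alternatives and 33 member values, 10 of the 18 called values kept their call throughout, 8 lost it at least once and none of the called values turned its sign. Of 15 uncalled values, 5 were called at least once. The 6 probes called for retinoic acid against IL-1α became 3 with no filter and 3 in a model of treatment only, and ranged from 3 to 7 without a single array, with 3 when either IL-1α array of batch 1 was left out. With treatment only, the 5 probes called for IL-1α became 3, and over all probes 2215, 1327 and 1984 were called in place of 6436, 5334 and 5656 (retinoic acid, IL-1α, and retinoic acid against IL-1α). Without the paired factor but with batch (no replicate block), the member counts were 8, 5 and 6. Counts over all probes are given here for the model of treatment only. Under the other settings a change in the member counts cannot be told from a change over all probes. Member probes with an interaction ranged from 1 to 6 without a single array. The sign turned in 3 uncalled values: Csf1 with retinoic acid was 0.0354 under median scaling and −0.262 to 0.0775 without a single array, Tnfrsf11a with retinoic acid −0.0708 to 0.108, and Csf1r ILMN_1230485 for retinoic acid against IL-1α −0.0160 to 0.460. Median scaling moved the median of all probes to 0.14 for retinoic acid, and the share of calls that were higher from 51.6% to 65.6% there and from 49.0% to 65.6% for retinoic acid against IL-1α. The alternatives for the lists were chosen after seeing the data. The cause of these changes was not tested. Dim probes (Csf1r, Tnfrsf11a) had few detected arrays, and that limits their values.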
